A study of Mus musculus with 6 samples.

Results

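Cardiac injury and remodelling response genes are a group of 9 genes known to change when heart muscle is stressed, wounded or regrowing. They were chosen by symbol (Uchl1, Xirp1, Xirp2, Timp1, Lgals3, Tnfrsf12a, Mt1, Mt2 and Hmox1), with earlier results of these data known. All 9 were found among the 24062 symbols of the deposited count table. RNA was sequenced from both ventricles of male C57/Bl6N mice on postnatal day 1. Of the 6 libraries, 3 came from mice with a cardiac-specific Med12 knockout that carried Cre recombinase (Med12cKO, CrePOS) and 3 from control mice without Cre (CreNEG). Cre was present in the knockout group alone, which means that its own effect and that of losing Med12 cannot be told apart. The labels name neither the promoter that drives Cre nor the Med12 alleles of the controls, and they do not tie a library to 1 animal.

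Med12 encodes a subunit of the kinase module of Mediator, the coactivator that relays signals from transcription factors to the polymerase. The 9 genes belong to several arms of the response to damage. Uchl1 encodes a deubiquitinase, Xirp1 and Xirp2 encode actin-binding Xin repeat proteins of the intercalated disc, and Timp1 encodes a secreted inhibitor of matrix metalloproteinases. Lgals3 encodes galectin-3, a sugar-binding protein made by macrophages among other cells, and Tnfrsf12a encodes Fn14, the receptor of the cytokine TWEAK. Mt1 and Mt2 encode metallothioneins, which bind zinc and copper and are induced by metals, glucocorticoids and oxidative stress, and Hmox1 encodes heme oxygenase-1, the inducible enzyme that breaks down heme.

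Library totals lay between 8453346 and 10911698 counts. Levels are TMM-scaled CPM (counts scaled by edgeR to a common library size), differences are log2 fold changes of Med12cKO over control, and a call means an adjusted p under 0.05. Med12 measured 61.6, 85.0 and 41.3 CPM in Med12cKO replicates 1 to 3 and 103, 176 and 113 CPM in control replicates 1 to 3, so the groups did not overlap (log2 fold change −1.06, SE 0.30; edgeR adjusted p = 0.765). Cardiac muscle was the main tissue by its markers, with cardiac troponin T (Tnnt2) at 5431 to 7735 CPM in Med12cKO and 7510 to 8810 CPM in control libraries. The 10 cardiomyocyte markers summed to 35608 to 44981 CPM in Med12cKO and 43556 to 56690 CPM in control libraries, and the log2 fold changes of all 10 were negative, with a median of −0.26. Of these 10 edgeR called 0, with 2 lower at an unadjusted p under 0.05, and DESeq2 called 1, Ryr2, which encodes the calcium release channel of heart muscle (log2 fold change −0.78, SE 0.16; edgeR adjusted p = 0.3002). Transcripts of thymus T cells were present in Med12cKO replicate 1 and control replicate 3 (means over 10 markers of 78.9 and 78.7 CPM) and averaged under 1 CPM in the other 4 libraries. Markers of skeletal muscle, 12 genes of which each had counts, summed to 351 to 634 CPM in Med12cKO and 110 to 156 CPM in control libraries, the highest sum being in Med12cKO replicate 1. Acta1, which encodes skeletal actin, and Casq1, which encodes skeletal calsequestrin, made up 425, 309 and 358 CPM of it in Med12cKO replicates 1 to 3 and 97.7, 117 and 71.6 CPM in control replicates 1 to 3. The other 10 summed to 209, 41.5 and 28.7 CPM in Med12cKO and 33.0, 38.8 and 38.2 CPM in control libraries, so in these Med12cKO replicate 1 stood far above the rest, replicate 2 was just above the highest control and replicate 3 below each control. The 8 markers of smooth muscle and pericytes summed to 1711, 2453 and 1586 CPM in Med12cKO and 1627, 1293 and 1095 CPM in control libraries, which overlap. At an unadjusted p under 0.05, 3 of them were higher and 1 lower, against 2.16% and 1.61% of all genes. Among them Cnn1, the gene of calponin-1, an actin-binding protein, rose to 74.9, 116 and 84.7 CPM in Med12cKO, against 34.2, 23.9 and 27.2 CPM in control libraries (log2 fold change 1.70, SE 0.20; edgeR adjusted p = 0.0464, limma-voom 0.0703), and it was 1 of the 3 genes edgeR called. The part of these cell types in the differences of the 9 genes was not tested, and Med12cKO replicate 1 and control replicate 3 were the closest of all library pairs by their counts.

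The fitted differences of the 9 genes pointed both ways, 4 positive and 5 negative, while 47.8% of all genes tested were negative. Uchl1, Tnfrsf12a and Xirp2 were higher in every Med12cKO library than in any control, by 1.85-fold, 1.51-fold and 1.27-fold. Mt1 and Hmox1 were lower in every Med12cKO library than in any control, at 0.711 and 0.800 of the control level. Lgals3 and Mt2 had lower means with overlapping groups, and Xirp1 and Timp1 had smaller differences with overlapping groups. In all, groups did not overlap in 5 of the 9 genes, against 8.23% of the 13629 genes tested. By direction, 3 of the 9 were above control in every library, against 4.59% of all genes, and 2 of the 9 were below it, against 3.64%. Since the 9 genes were chosen with earlier results of these data known, an excess over these shares is not independent evidence.

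None of the 9 passed edgeR's quasi-likelihood test with Benjamini-Hochberg adjustment over all genes tested, a test that called 0.022% of them. At an unadjusted p under 0.05 edgeR gave 4 of the 9, against 3.78% of all genes. They were 2 higher (Uchl1 and Tnfrsf12a), against 2.16% of all genes, and 2 lower (Lgals3 and Mt1), against 1.61%. The way the 9 genes were chosen limits these shares as well. DESeq2 called 1 of the 9, Uchl1, and 0.477% of all genes, and limma-voom called 0 of the 9 and 0.022% of all genes. The median log2 fold change of the 9 was −0.21, against 0.01 over all genes tested. In bulk ventricle RNA, fewer cells of a type and less RNA per cell cannot be told apart.

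**Figure D1:**
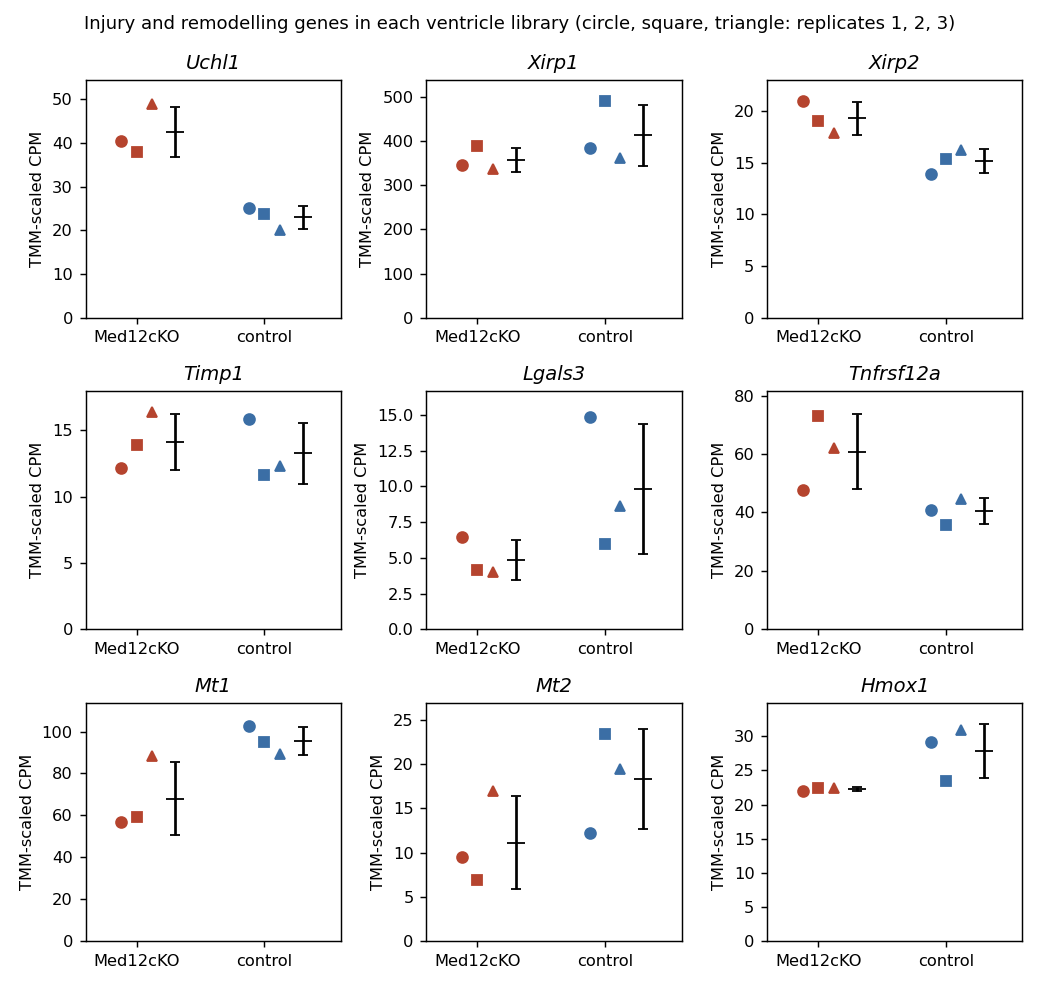
Level of each gene in TMM-scaled CPM (y axis, from 0) in the 3 Med12cKO and 3 control libraries, with the mean and SD of each group at its right. The Med12cKO points of Uchl1 (38.0 to 49.0 CPM) all lie above the control points (20.1 to 25.2 CPM), while those of Lgals3 and Timp1 overlap the controls.

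Uchl1 encodes ubiquitin C-terminal hydrolase L1, a deubiquitinase that is abundant in neurons. It measured 40.4, 38.0 and 49.0 CPM in Med12cKO replicates 1 to 3 and 25.2, 23.7 and 20.1 CPM in control replicates 1 to 3. The lowest Med12cKO library was above the highest control library, and the counts behind these values were 358, 385 and 455 in Med12cKO and 219, 249 and 210 in control. The means were 42.4 ± 5.77 CPM in Med12cKO and 23.0 ± 2.63 CPM in control (SD, n = 3 each). The log2 fold change was 0.88 (SE 0.15, 95% interval 0.55 to 1.22), with an unadjusted p of 0.000187 in edgeR, which placed Uchl1 18th by p among the 13629 genes. Its adjusted p was 0.129 in edgeR and 0.198 in limma-voom, which did not call it, and 0.000599 in DESeq2, which did. When the group labels were exchanged in all 20 ways, the exact permutation p (two-sided, on log2 CPM) was 0.10, and no smaller p is possible with 3 libraries a group.

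Uchl1 lies on chromosome 5 (66676091 to 66687234, plus strand, GRCm38), and 18.1% of its exon bases are also annotated to Uchl1os, a gene on the opposite strand. The table gave Uchl1os a single count over the 6 libraries. Of the related hydrolase genes, Uchl3 and Uchl5 did not pass the test. Uchl3 averaged 9.76 ± 2.48 CPM in Med12cKO and 10.4 ± 0.51 CPM in control, and Uchl5 averaged 27.6 ± 4.27 and 28.0 ± 2.65 CPM in the same order (log2 fold changes −0.09 and −0.02; edgeR adjusted p = 1.00 for both). Among the 13 genes of the list of deubiquitinases and muscle ubiquitin ligases, edgeR called 0 and Uchl1 alone had an unadjusted p under 0.05. The muscle ubiquitin ligase genes Fbxo32 and Trim63 had log2 fold changes of −0.24 (SE 0.12) and −0.15 (SE 0.14) and did not pass. Markers of neurons and Schwann cells, 12 genes of which each had counts, summed to 32.3 to 73.2 CPM in Med12cKO and 35.4 to 60.5 CPM in control libraries. Of these markers 9 were tested, 7 with positive and 2 with negative log2 fold changes, while 47.8% of all genes tested were negative. The median of the markers tested was 0.30, and 0 were at an unadjusted p under 0.05. Med12cKO replicate 3 had the lowest neural sum of the 6 libraries and the highest Uchl1 level. The part of neural cells in the Uchl1 difference was not tested.

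Tnfrsf12a encodes Fn14, a small receptor of the tumour necrosis factor family that is induced in injured muscle. It measured 47.6, 72.9 and 62.0 CPM in Med12cKO replicates 1 to 3 and 40.7, 35.7 and 44.7 CPM in control replicates 1 to 3. The groups did not overlap, but Med12cKO replicate 1 was close to control replicate 3. The log2 fold change was 0.59 (SE 0.17, 95% interval 0.21 to 0.97; unadjusted p = 0.00639, adjusted p = 0.650 in edgeR and 0.244 in DESeq2). It was 0.73 without Med12cKO replicate 1 and 0.44 without Med12cKO replicate 2, and its unadjusted p stayed under 0.05 whichever of the 6 libraries was left out. Tnfsf12, which encodes the ligand TWEAK, averaged 9.53 ± 1.43 CPM in Med12cKO and 8.29 ± 0.90 CPM in control, with overlapping groups (log2 fold change 0.20, SE 0.20). Nfkb2, a subunit gene of the NF-kappaB pathway downstream of Fn14, averaged 31.5 ± 5.90 CPM in Med12cKO and 35.7 ± 5.36 CPM in control (log2 fold change −0.18, SE 0.17). Of the 16 genes tested of the TWEAK pathway, edgeR and DESeq2 called 0, Tnfrsf12a alone had an unadjusted p under 0.05, and the median log2 fold change of the other 15 was −0.06.

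The RefSeq window of 250 bases before to 50 after the transcript start of Tnfrsf12a (chr17:23677400-23677699, minus strand, GRCm38.p6) is shown because this gene had the second lowest p of the 9. Capitals mark GC boxes (GGGCGG, both strands, the site bound by Sp1). It held 5 matches, of which a pair abut, while 2.71% of 32851 RefSeq windows held 5 or more and 35.7% held at least 1.
Tnfrsf12a: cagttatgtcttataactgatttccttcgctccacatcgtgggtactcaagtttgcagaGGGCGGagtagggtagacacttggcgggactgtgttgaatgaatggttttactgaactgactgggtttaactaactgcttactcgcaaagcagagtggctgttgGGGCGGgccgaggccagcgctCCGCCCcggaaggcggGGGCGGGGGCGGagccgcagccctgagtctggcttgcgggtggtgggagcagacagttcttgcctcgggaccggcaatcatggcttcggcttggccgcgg

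Xirp1 and Xirp2 encode the Xin repeat proteins, which bind and cross-link actin filaments at the intercalated disc and interact with filamin and other junction proteins. Xirp1 measured 346, 388 and 336 CPM in Med12cKO replicates 1 to 3 and 385, 491 and 363 CPM in control replicates 1 to 3. The groups overlapped, and control replicate 2 was the highest library. Its log2 fold change was −0.21 (SE 0.15, 95% interval −0.54 to 0.12; edgeR adjusted p = 1.00), and −0.07 without control replicate 2.

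Xirp2 measured 21.0, 19.0 and 17.9 CPM in Med12cKO replicates 1 to 3 and 13.9, 15.3 and 16.3 CPM in control replicates 1 to 3. Every Med12cKO library was above every control, with a gap of under 2 CPM between the groups. Its log2 fold change was 0.35 (SE 0.15, 95% interval −0.0036 to 0.69; unadjusted p = 0.0519, adjusted p = 1.00 in edgeR). Counts were 166 to 193 in Med12cKO and 121 to 170 in control libraries, where counting error alone is 7.42% and 8.15% of the level. Xirp1 and Xirp2 are also muscle genes, and of the skeletal muscle markers Acta1 and Casq1 were higher in every Med12cKO library than in any control, while the sum of the other 10 was far above the controls only in Med12cKO replicate 1. Without that library the log2 fold change of Xirp2 was 0.27 (unadjusted p = 0.194 in edgeR), and without control replicate 1 it was 0.29 (unadjusted p = 0.133). The unadjusted p of Xirp2 was under 0.05 in 1 of the 6 fits that left out 1 library. The part of skeletal muscle RNA in the Xirp2 difference was not tested.

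The RefSeq window of Xirp2 (chr2:67445752-67446051, plus strand, GRCm38.p6) is shown because Xirp2 is a known target of the muscle factor MEF2A. Capitals mark the MEF2 core CTANNNNTAG, a palindrome counted once for both strands, which occurred in 3.69% of all windows.
Xirp2: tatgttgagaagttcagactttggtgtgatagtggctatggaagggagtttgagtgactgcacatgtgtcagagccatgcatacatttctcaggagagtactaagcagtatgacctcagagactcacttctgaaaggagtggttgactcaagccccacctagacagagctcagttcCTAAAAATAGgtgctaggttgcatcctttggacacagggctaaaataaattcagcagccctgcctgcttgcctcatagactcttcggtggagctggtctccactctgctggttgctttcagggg

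Among genes of the intercalated disc, Z-disc and filamin partners, 18 of 19 were tested and edgeR and DESeq2 called 0. At an unadjusted p under 0.05 there was 1 higher and 1 lower. Ankrd1, a stretch-responsive gene of the sarcomere and nucleus, measured 719, 1053 and 594 CPM in Med12cKO replicates 1 to 3 and 630, 484 and 507 CPM in control replicates 1 to 3, which overlap (log2 fold change 0.55, SE 0.21; edgeR adjusted p = 1.00). Cdh2, which encodes the N-cadherin of the intercalated disc, measured 273, 328 and 271 CPM in Med12cKO and 346, 449 and 377 CPM in control libraries, which do not overlap (log2 fold change −0.43, SE 0.14; edgeR adjusted p = 0.913). The median over the 16 tested genes other than Xirp1 and Xirp2 was 0.04.

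Timp1 encodes a secreted inhibitor of matrix metalloproteinases that is a common readout of cardiac fibrosis. It measured 12.2, 13.9 and 16.4 CPM in Med12cKO replicates 1 to 3 and 15.9, 11.6 and 12.3 CPM in control replicates 1 to 3. The groups overlapped fully, and the log2 fold change was 0.09 (SE 0.19, 95% interval −0.34 to 0.53; edgeR adjusted p = 1.00). The interval leaves room for a level between 0.788 and 1.44 times that of control. The other inhibitor genes did not pass either. Timp2 averaged 309 ± 42.8 CPM in Med12cKO and 273 ± 43.1 CPM in control, Timp3 326 ± 85.3 and 318 ± 46.3 CPM, and Timp4, which is enriched in heart, 11.4 ± 3.03 and 14.03 ± 2.63 CPM, with Med12cKO first in each pair. Of 16 inhibitors, metalloproteinases and related genes tested, edgeR and DESeq2 called 0. Mmp23 alone had an unadjusted p under 0.05, at 51.5, 52.3 and 53.3 CPM in Med12cKO and 50.1, 35.4 and 36.2 CPM in control libraries (log2 fold change 0.37, SE 0.15; edgeR adjusted p = 1.00).

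Lgals3 had the largest fitted difference of the 9 genes and one of the widest intervals. It measured 6.43, 4.14 and 3.98 CPM in Med12cKO replicates 1 to 3 and 14.8, 6.002 and 8.61 CPM in control replicates 1 to 3. Med12cKO replicate 1 lay above control replicate 2, so the groups overlapped, and control replicate 1 stood above the rest. Counts were 37 to 57 in Med12cKO and 63 to 129 in control libraries. The log2 fold change was −1.01 (SE 0.35, 95% interval −1.81 to −0.22; unadjusted p = 0.0179, adjusted p = 0.977 in edgeR), and the exact permutation p was 0.20. Without control replicate 1 it was −0.59, and the unadjusted p was under 0.05 in 3 of the 6 fits that left out 1 library.

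Lgals3 is expressed by macrophages, so the markers of these cells are set beside it. The 10 markers, of which each had counts, summed to 183 to 254 CPM in Med12cKO and 204 to 338 CPM in control libraries. Their log2 fold changes were negative in 9 of 10, against 47.8% of all genes tested, and 0 of the markers were at an unadjusted p under 0.05. Control replicate 1 had the highest marker sum and the highest Lgals3 level, and Med12cKO replicate 3 the lowest of both. The part of macrophage number in the Lgals3 difference was not tested.

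**Figure D2:**
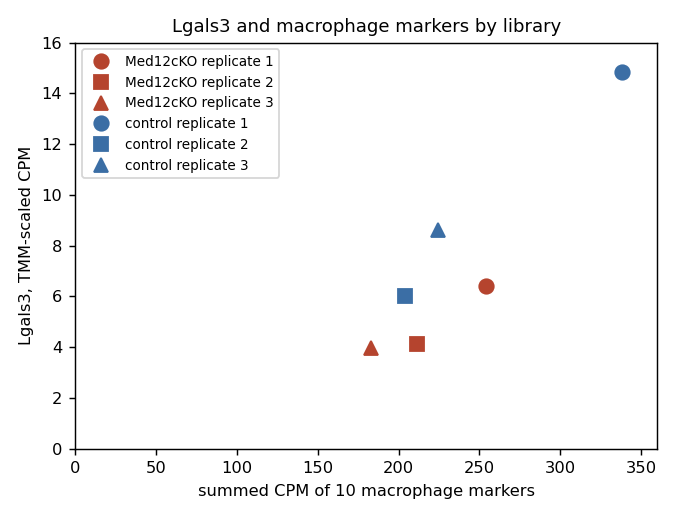
Lgals3 in TMM-scaled CPM (y axis) against the summed CPM of 10 macrophage markers (x axis), 1 point per library, with shapes for replicates. Control replicate 1 is highest on both axes (14.8 and 338 CPM) and Med12cKO replicate 3 lowest on both (3.98 and 183 CPM). Med12cKO replicate 1 lies to the right of control replicate 3 (254 against 224 CPM) but below it (6.43 against 8.61 CPM).

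The other galectin genes did not pass the test. Lgals1, which encodes galectin-1, measured 353, 333 and 348 CPM in Med12cKO and 343, 220 and 253 CPM in control libraries (log2 fold change 0.34, SE 0.17; edgeR adjusted p = 1.00). Lgals8 averaged 45.4 ± 2.18 CPM in Med12cKO and 49.6 ± 3.63 CPM in control, and Lgals9 averaged 79.0 ± 20.1 and 82.9 ± 19.2 CPM in the same order. Lgals3bp, which encodes a secreted binding partner of galectin-3, averaged 55.2 ± 16.1 CPM in Med12cKO and 50.2 ± 11.6 CPM in control. Lgals7, which encodes galectin-7, measured 3.16, 1.38 and 1.94 CPM in Med12cKO and 4.26, 2.67 and 2.01 CPM in control libraries, which overlap (log2 fold change −0.46, SE 0.41). Of the 8 galectin-related genes tested, edgeR and DESeq2 called 0 and Lgals3 alone had an unadjusted p under 0.05.

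Mt1 and Mt2 encode small cysteine-rich proteins that buffer zinc and copper and take up reactive oxygen. They are neighbours on chromosome 8, with RefSeq windows that start 6471 bases apart. Mt1 (94179082 to 94180327, plus strand, GRCm38) measured 56.6, 59.1 and 88.1 CPM in Med12cKO replicates 1 to 3 and 103, 94.8 and 89.2 CPM in control replicates 1 to 3. The groups did not overlap, but Med12cKO replicate 3 was just below control replicate 3, and the SD was larger in Med12cKO (17.5 CPM) than in control (6.74 CPM). The log2 fold change was −0.49 (SE 0.17, 95% interval −0.88 to −0.10; unadjusted p = 0.0185, adjusted p = 0.977 in edgeR). With 1 library left out it ranged from −0.73, without Med12cKO replicate 3 (adjusted p = 0.245), to −0.39. The unadjusted p was under 0.05 in 3 of those 6 fits, and it was 0.0629, 0.0625 and 0.0775 without Med12cKO replicate 1, Med12cKO replicate 2 and control replicate 1. The cardiomyocyte markers were also lower in Med12cKO by fitted difference, as given above, and Tnnt2 stood at −0.38 on the log2 scale (SE 0.19, adjusted p = 1.00 in edgeR). The part of cardiomyocyte RNA in the Mt1 difference was not tested.

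Mt2 (94172664 to 94173568, plus strand) measured 9.47, 6.91 and 17.003 CPM in Med12cKO replicates 1 to 3 and 12.2, 23.4 and 19.4 CPM in control replicates 1 to 3. The groups overlapped because Med12cKO replicate 3 lay above control replicate 1, and Med12cKO replicate 3 was the highest of its group for both metallothioneins. Its log2 fold change was −0.72 (SE 0.36, 95% interval −1.55 to 0.10; unadjusted p = 0.0784, adjusted p = 1.00 in edgeR), and −1.17 without Med12cKO replicate 3. Of the exon bases of Mt2, 73.5% are also annotated to a gene model on the opposite strand. The use of strand in counting is not given in the sources used here, and Mt1 and Mt2 are close copies, so reads may have been lost from or split between them. Med12cKO replicate 3 also had the lowest Med12 level of the 6 libraries (41.3 CPM), the highest Uchl1 level (49.0 CPM) and the lowest Lgals3 level (3.98 CPM). The relation of these levels to that of Med12 was not tested.

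The RefSeq windows of Mt1 (chr8:94178839-94179138) and Mt2 (chr8:94172368-94172667), both on the plus strand of GRCm38.p6, are shown because these genes are controlled through metal response elements, the sites of the zinc-sensing factor MTF-1. Capitals mark the element's core, TGCGCNC or TGCACNC on either strand. Mt1 held 3 matches and Mt2 held 4, while 1.97% of all windows held 3 or more and 25.7% held at least 1. Uchl1 and Timp1 held 1 each, and the windows of Xirp2, Lgals3 and Tnfrsf12a held 0.
Mt1: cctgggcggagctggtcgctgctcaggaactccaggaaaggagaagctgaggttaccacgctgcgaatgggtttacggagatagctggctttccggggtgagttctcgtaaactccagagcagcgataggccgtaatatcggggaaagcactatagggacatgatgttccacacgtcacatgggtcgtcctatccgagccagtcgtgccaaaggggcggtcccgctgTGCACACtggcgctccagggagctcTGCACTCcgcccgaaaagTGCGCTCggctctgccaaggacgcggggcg
Mt2: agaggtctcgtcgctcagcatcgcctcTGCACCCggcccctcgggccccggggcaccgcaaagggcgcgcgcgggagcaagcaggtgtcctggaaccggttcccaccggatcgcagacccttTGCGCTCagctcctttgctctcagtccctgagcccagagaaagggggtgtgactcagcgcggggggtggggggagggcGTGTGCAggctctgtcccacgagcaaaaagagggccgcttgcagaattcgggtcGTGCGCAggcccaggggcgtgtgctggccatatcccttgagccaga

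Of the other metallothionein genes, Mt3, which is best known from brain, measured 9.02, 6.32 and 11.2 CPM in Med12cKO and 10.6, 7.81 and 5.64 CPM in control libraries, which overlap (log2 fold change 0.14, SE 0.29). Mt4 was listed at 0 in all 6 libraries. The zinc exporter gene Slc30a1, itself a target of MTF-1, averaged 36.7 ± 1.91 CPM in Med12cKO and 40.1 ± 3.08 CPM in control (log2 fold change −0.13, SE 0.12). The zinc importer gene Slc39a8 measured 36.4, 33.7 and 32.7 CPM in Med12cKO and 39.1, 42.4 and 40.8 CPM in control libraries, without overlap (log2 fold change −0.25, SE 0.12; edgeR adjusted p = 1.00). Of 11 metallothionein and metal transport genes tested, edgeR and DESeq2 called 0, and Mt1 alone had an unadjusted p under 0.05. Metallothioneins also respond to glucocorticoids, and of 11 glucocorticoid-induced genes edgeR and DESeq2 called 0, with a median log2 fold change of −0.03. At an unadjusted p under 0.05 there were 2, Cdkn1a, which encodes the cell cycle inhibitor p21 (log2 fold change 0.53, SE 0.17), and Pdk4, which encodes a kinase that restrains pyruvate oxidation (log2 fold change −0.48, SE 0.16).

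Hmox1 encodes the inducible heme oxygenase, which frees iron, biliverdin and carbon monoxide from heme. It measured 22.0, 22.5 and 22.4 CPM in Med12cKO replicates 1 to 3 and 29.2, 23.4 and 31.0 CPM in control replicates 1 to 3. All Med12cKO libraries lay below the controls, though control replicate 2 was within 1 CPM of the nearest of them. The SD of 0.27 CPM in Med12cKO, 1.196% of the level, is smaller than the counting error of 6.90% that its 195 to 228 counts carry, so it understates the true spread. The log2 fold change was −0.32 (SE 0.15, 95% interval −0.65 to 0.01; unadjusted p = 0.0533, adjusted p = 1.00 in edgeR).

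The constitutive paralog Hmox2 averaged 76.4 ± 11.96 CPM in Med12cKO and 73.8 ± 2.13 CPM in control (log2 fold change 0.05, SE 0.13). Of 19 genes tested for heme breakdown, iron storage and the targets of the oxidative stress factor NRF2, edgeR and DESeq2 called 0, and the median over the 18 others was 0.02. The NRF2 target Nqo1, a quinone reductase gene, measured 22.1, 20.1 and 21.6 CPM in Med12cKO and 14.6, 12.2 and 17.5 CPM in control libraries, without overlap (log2 fold change 0.53, SE 0.17; unadjusted p = 0.0138, adjusted p = 0.886 in edgeR). The iron exporter gene Slc40a1 measured 41.4, 34.9 and 35.2 CPM in Med12cKO and 43.2, 47.6 and 52.8 CPM in control libraries (log2 fold change −0.37, SE 0.13; unadjusted p = 0.0208, adjusted p = 1.00 in edgeR). Hmox1 and Nqo1, both known NRF2 targets, had fitted differences of opposite sign, and neither passed the test over all genes. The part of NRF2 in these differences was not tested.

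**Figure D3:**
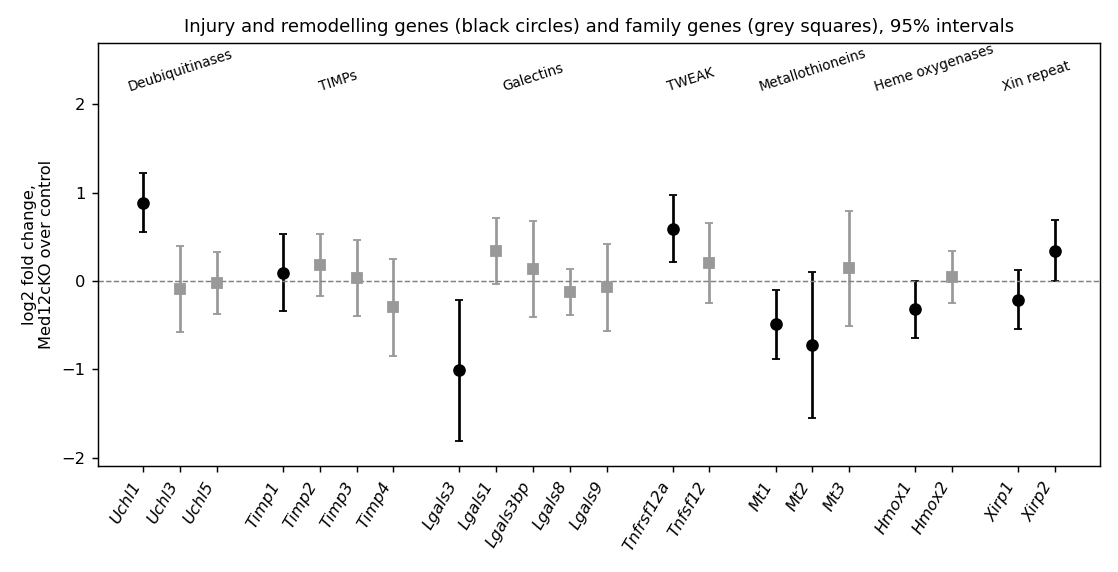
Log2 fold change of Med12cKO over control (y axis) with 95% intervals from edgeR for the 9 genes (black circles) and their listed family genes (grey squares). The intervals of Uchl1, Tnfrsf12a, Mt1 and Lgals3 do not include 0, those of each gene drawn in grey do, and genes of the wider lists are not drawn, among them Cdh2, Ankrd1, Mmp23, Nqo1, Slc40a1, Cdkn1a, Pdk4, Spp1 and Ctgf, whose intervals do not include 0.

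Per kilobase of annotated exon, the levels of the 9 genes in Med12cKO ventricles ran from Xirp1 (61.1 CPM per kb) and Mt1 (54.5) over Tnfrsf12a (31.5), Uchl1 (26.0), Mt2 (18.9), Timp1 (15.9) and Hmox1 (12.7) to Lgals3 (2.61) and Xirp2 (1.61). In control ventricles the order was Mt1 (76.7 CPM per kb), Xirp1 (70.7), Mt2 (31.2), Tnfrsf12a (20.9), Hmox1 (15.9), Timp1 (15.0), Uchl1 (14.1), Lgals3 (5.28) and Xirp2 (1.27). Mt1 and Xirp1 overlapped in range in both groups, as did Hmox1, Timp1 and Uchl1 in control libraries. Uchl1 stood above Mt2, Timp1 and Hmox1 in Med12cKO and below each of them in control by mean, and in Med12cKO its lowest library (23.3 CPM per kb) was above the highest of Timp1 (18.4) and of Hmox1 (12.8). Exon lengths are of all annotated transcripts joined, which understates the per-length level of a gene with retained introns or unused exons, such as Mt1.

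**Figure D4:**
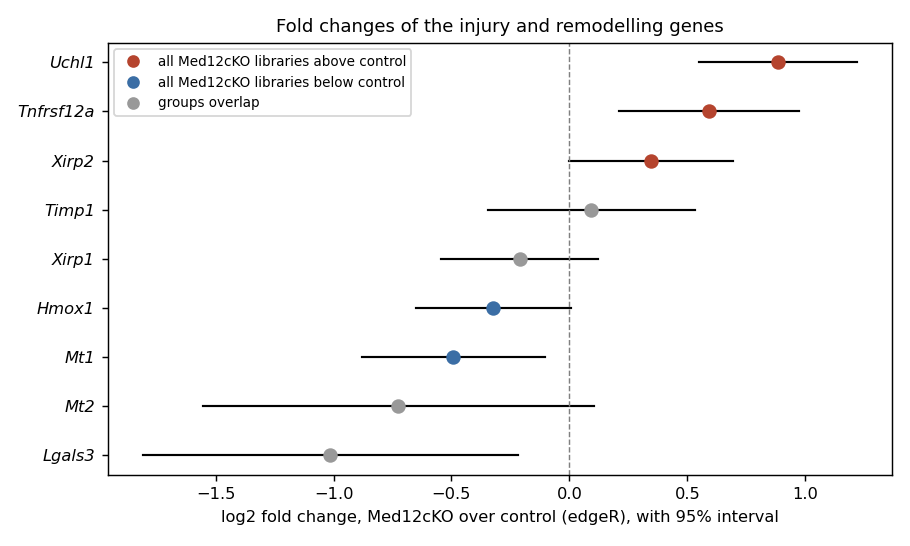
Log2 fold change of Med12cKO over control (x axis) with 95% intervals, ordered from Uchl1 at the top to Lgals3 at the bottom, coloured by whether the libraries of the groups overlapped. Uchl1 (0.88) is the farthest above 0, and Lgals3 (−1.01) the farthest below with an interval from −1.81 to −0.22.

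Matricellular and fibrosis genes, which often accompany Timp1 and Lgals3 in injured heart, had 0 of 14 called by edgeR or DESeq2, with 10 of 14 at a positive log2 fold change and a median of 0.15. Over all genes tested, 47.8% had a negative log2 fold change. Ctgf, a target of TGF-beta and YAP, measured 185, 192 and 106 CPM in Med12cKO and 123, 89.6 and 116 CPM in control libraries, which overlap (log2 fold change 0.56, SE 0.23; unadjusted p = 0.0401, adjusted p = 1.00 in edgeR). Spp1, which encodes osteopontin, a product of activated macrophages, had 1.47, 0.888 and 1.61 CPM in Med12cKO and 3.11, 2.29 and 2.68 CPM in control libraries, without overlap (log2 fold change −1.02, SE 0.34; unadjusted p = 0.0147, adjusted p = 0.912 in edgeR).

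The direction of 8 of the 9 fitted differences was the same under all 16 other settings tried, the exception being Timp1, which stood at −0.03 without Med12cKO replicate 3. Uchl1 ranged from 0.77 to 1.04 and Tnfrsf12a from 0.44 to 0.81 on the log2 scale. Lgals3 ranged from −1.35 to −0.48, Mt2 from −1.17 to −0.47 and Mt1 from −0.73 to −0.34. These settings reuse the same 6 libraries and are not independent. Without the libraries with thymus transcripts, the unadjusted p in edgeR was 0.00214 for Uchl1, 0.00153 for Tnfrsf12a and 0.00527 for Lgals3. It was 0.0788 for Mt1, 0.209 for Xirp2, 0.264 for Mt2 and 0.327 for Hmox1. Their log2 fold changes in that fit were −0.43, 0.33, −0.59 and −0.23, against −0.49, 0.35, −0.72 and −0.32 with all 6 libraries. With only the libraries labelled I in their descriptions, the unadjusted p in edgeR was 0.23 for Lgals3, 0.171 for Mt1, 0.0496 for Tnfrsf12a and 0.000608 for Uchl1. Both subsets hold fewer libraries in each group, so these p-values are not directly comparable with those of all 6 libraries.

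**Figure D5:**
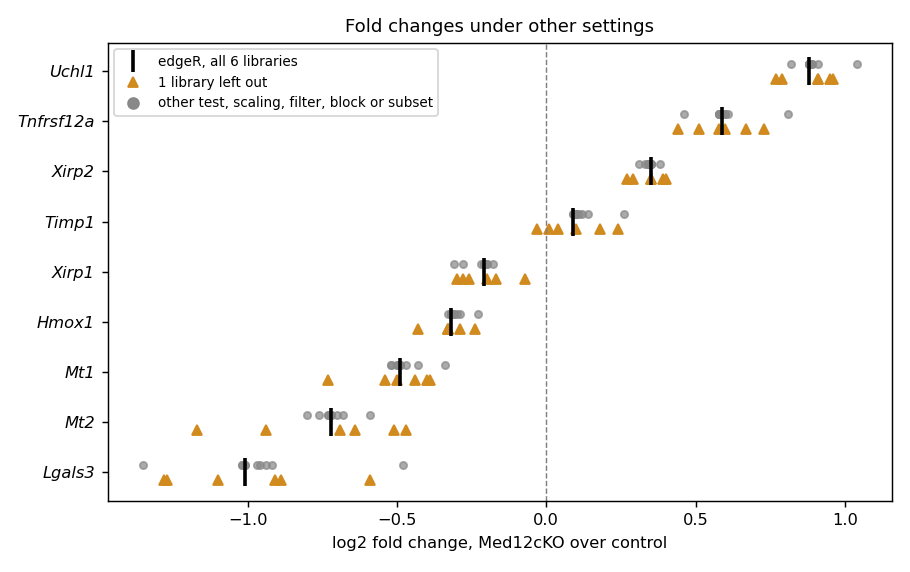
Log2 fold change of Med12cKO over control (x axis) of each gene in edgeR on all 6 libraries (black bar), with 1 library left out (triangles) and under another test, scaling, filter, block or subset of libraries (circles). The values of Uchl1 stay between 0.77 and 1.04, while those of Lgals3 run from −1.35 to −0.48.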

How the data were processed

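Raw read counts per gene symbol were deposited by the authors, whole numbers with no normalization. TopHat2 2.0.0, featureCounts, edgeR 3.14.0 and the build GRCm38 (mm10) are named, per the submitters' processing notes. The annotation, strand setting and filters are not given in the sources used here. Columns were matched to samples by the sample descriptions. The 9 genes and all lists were chosen with earlier results of these data known. Differences were tested with the quasi-likelihood method of edgeR 4.0.16 (robust, TMM, filterByExpr with a minimum count of 10 and total of 15; R 4.3.3) on 13629 genes, with Benjamini-Hochberg adjustment over all of them. SEs were obtained from log2 fold changes and F values. Alternatives were DESeq2 1.42.0, limma-voom 3.58.1, other scalings, filters, blocks and subsets, and each library left out. The code was tested on simulated data.

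P-values measure only the spread between these samples, which may be technical. Within a group, counts of library pairs differed beyond sampling noise (chi-square over its degrees of freedom, 15.3 to 31). Between groups the range was 9.6 to 27.4, and Med12cKO replicate 1 with control replicate 3 (9.6) and Med12cKO replicate 3 with control replicate 1 (12.4) were closer than any pair within a group. At these depths 3 counts, the limit a count of 0 allows, correspond to 0.275 to 0.355 CPM before scaling, and such limits cover counting error only. Genes named besides the 9 were Med12, the 2 with the smallest unadjusted p of each list, the listed paralogs and the genes most alike in level by Pearson correlation, where the result for Uchl1 is not reported here. Tnnt2 as a marker, Ryr2, Acta1, Casq1, Cnn1, Mt4 and Uchl1os were named after their values were seen. Positions and exon lengths are from GENCODE M21. Of the 9 genes, 7 matched a RefSeq promoter window.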

Additional observations from a re-analysis of the deposited data

How the results depend on the processing

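DESeq2 called 65 genes, 32 higher and 33 lower, against 3 in edgeR (1 higher and 2 lower), and 1 of the 9 genes against 0. It called Uchl1 at 0.89 and Med12 at −1.06 on the log2 scale (adjusted p = 0.000599 and 0.0246), and the cause was not tested. With the 4 libraries labelled I in their descriptions edgeR called 1 gene, and with 1 library left out 1 to 3 genes and 0 of the 9. With DESeq2's size factors in edgeR the calls were 0 higher and 2 lower, and with library totals only 2 higher and 2 lower. With 1 library left out, Timp1 ranged from −0.03 to 0.24. Replicate numbers did not pair the libraries (correlations of deviations −0.286, 0.532 and −0.314), and not every library correlated best with its own number. The highest value was 0.747, for Med12cKO replicate 1 and control replicate 3, which both held thymus transcripts, and Med12cKO replicate 3 and control replicate 1 had 0.389. With replicate 2 of each group (0.532), these values gave every library its own best partner in the other group. A fit blocked by these partners was not run, and replicate numbers differ from them for replicates 1 and 3. With the replicate number as a block edgeR called 2 genes, 0 of the 9, with Uchl1 at 0.88 (adjusted p = 0.275).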

Other observations

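The genes whose log2 CPM followed each of the 9 except Uchl1 most closely over the 6 libraries are given as a description. Mt1 was most like Fhl2 (Pearson r = 0.9997), which encodes a LIM protein of heart muscle, and then Tnnt2 (0.9938), which encodes cardiac troponin T, and Ptp4a3 (0.9914). Tnfrsf12a was most like Hspa2 (0.9941), a heat shock protein gene, and Hmox1 was most like Phospho2 (0.9930). Timp1 was most like Ctsh (0.9932), the gene of a lysosomal protease, and Lgals3 was most like Zfp383 (0.9891). Xirp1 was most like Fem1b (0.9899), Xirp2 most like Adcy2 (0.9901) and Mt2 most like Cutc (0.9940). The highest value was at least 0.9891 for each of the 9, in a search of 13629 genes over 6 libraries.

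Neutrophil markers, 6 genes, summed to 13.5 to 25.5 CPM in Med12cKO and 18.1 to 49.3 CPM in control libraries, and control replicate 1, the library with the most Lgals3, had the highest sum. Med12cKO replicate 1 had the lowest sum of the 6 libraries (13.5 CPM) but the highest Lgals3 level of its group (6.43 CPM). The part of neutrophils in the Lgals3 difference was not tested.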
